A study of Mus musculus with 15 samples.

Results

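The immediate-early transcription factors described here are the products of 10 genes, Fos, Jun, Junb, Egr1, Ier2, Nr4a1, Atf3, Maff, Klf6 and Myc. They were chosen by gene symbol, as genes known to be transcribed soon after a stimulus or stress. All 10 were found among the 18510 rows of the deposited table, and all 10 were among the 10959 genes that reached 1 FPKM in 5 or more of the 15 libraries and were tested. FPKM, fragments per kilobase of transcript scaled to the mapped fragments of the library, is a level per length, so levels of different genes can be set side by side. Total RNA from the livers of 15 wild-type (WT) mice in 3 groups of 5 had been sequenced. The Ctrl mice had a control diet, the Alc mice an alcohol diet, and the Alc UA mice an alcohol diet to which UA was added. The labels give UA only as these letters. Alcohol feeding is therefore shared by Alc and Alc UA, and no group had UA without alcohol. The sources used here do not give the strain, sex or age of the mice, the length of feeding or the hour at which livers were taken.

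Immediate-early genes are transcribed without new protein synthesis. Kinase cascades and cyclic AMP signalling act on factors that already sit at their promoters, mainly SRF with its partners and CREB, and the short-lived messages disappear again soon after the stimulus ends. FOS, JUN, JUNB and ATF3 are basic leucine zipper (bZIP) proteins that dimerise and bind AP-1 and related DNA elements, and MAFF is a small bZIP protein that pairs with NRF2, BACH1 and other partners. In liver these genes are known for their fast responses to partial hepatectomy, feeding, stress hormones and the handling of tissue.

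Promoters of immediate-early genes are known for short elements through which such signals act, and 7 of the 10 members had promoter entries in RefSeq (build GRCm38.p6, 9 promoters in all, since Maff had entries for 3 start sites). The 120 bases before the start are shown for 4 of them, 5′ to 3′ on the strand of the gene, because Fos, Nr4a1, Maff and Klf6 are the members on which the results below turn. Capitals mark matches on either strand to the cAMP response element half-site TGACG, the full element TGACGTCA, the EGR element GCGGGGGCG and the TATA box TATAAA; the half-site lies within the full element. Fos lies at chr12:85473770-85473889 (plus strand), Nr4a1 at chr15:101266726-101266845 (plus strand), start 2 of Maff at chr15:79347400-79347519 (plus strand) and Klf6 at chr13:5861369-5861488 (plus strand).
Fos: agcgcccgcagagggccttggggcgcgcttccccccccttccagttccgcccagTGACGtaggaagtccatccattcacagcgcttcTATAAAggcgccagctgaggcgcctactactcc
Nr4a1: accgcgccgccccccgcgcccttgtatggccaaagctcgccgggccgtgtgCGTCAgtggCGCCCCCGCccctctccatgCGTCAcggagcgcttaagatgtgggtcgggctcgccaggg
Maff, start 2: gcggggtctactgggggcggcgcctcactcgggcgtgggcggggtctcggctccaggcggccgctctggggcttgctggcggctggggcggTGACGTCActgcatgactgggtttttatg
Klf6: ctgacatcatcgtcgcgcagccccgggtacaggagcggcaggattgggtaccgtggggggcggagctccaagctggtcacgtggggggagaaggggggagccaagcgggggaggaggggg
Within the full windows of 250 bases, Fos held half-sites starting at -129 and -66 and a TATA box at -33, counted from the first transcribed base with -1 as the base before it. Nr4a1 held half-sites at -233, -213, -69 and -40 and an EGR element at -60, all read from the opposite strand. Start 2 of Maff held a full cAMP response element at -29, and its start 3 a half-site at -122. Junb held a half-site at -106 and Atf3 one at -7. Start 1 of Maff, Jun and Klf6 had no match to any of the 6 motifs searched, which also included the AP-1 element TGACTCA and the CArG box, the core of the serum response element. Among all 32851 promoters of the same length, 17.8% held a half-site, 1.55% the full cAMP response element, 4.46% the AP-1 element, 1.47% a CArG box, 2.57% the EGR element and 12.4% the TATA box. The plot of motif positions shows each match by distance from the start site. Only exact matches within these 250 bases were searched, so imperfect elements and elements outside the window were not examined. A match describes these letters only, and no binding was measured in these mice.

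**Figure D1:**
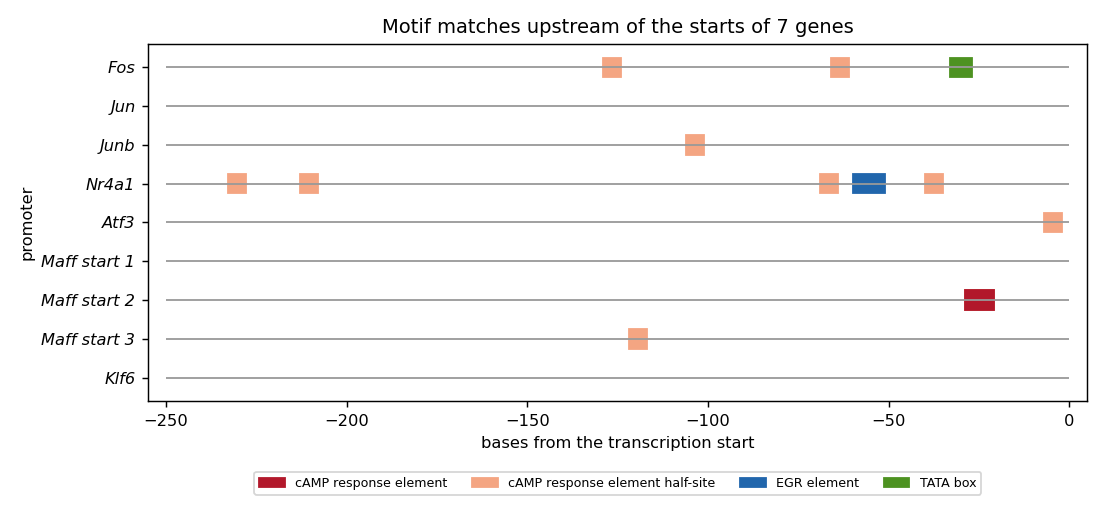
Positions of motif matches in the 250 bases before each of 9 RefSeq start sites of 7 members, with distance from the start site in bases on the horizontal axis and 1 line per promoter. Nr4a1 carries 4 half-sites and 1 EGR element, start 2 of Maff carries the full cAMP response element, and Jun, Klf6 and start 1 of Maff carry no match.

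The libraries had FPKM sums of 551152.51 to 668831.75 and 10119 to 11471 genes at 1 FPKM or above, and the number of reads behind them is not known. Ctrl 5 stood apart from the other controls on the first principal component, at -6.04 against -48.4 to -30.2, on the side of the alcohol-fed mice at 2.47 to 28.4. The median log2 difference of all tested genes was -0.12 for Alc minus Ctrl and -0.16 for Alc UA minus Ctrl. Under other scalings of the libraries it lay between -0.01 and 0.02 for the first and between -0.09 and 0.04 for the second. The 6 hepatocyte markers summed to 33940 to 56270 FPKM per library in Ctrl (median 54790), 43700 to 59930 in Alc (median 53860) and 29630 to 49040 in Alc UA (median 41520), and no marker was at 0 in any group. Sinusoidal endothelial markers, none at 0 in any group either, summed to 129.5 to 367.8 in Ctrl, 59.8 to 129.8 in Alc and 64.34 to 80.07 in Alc UA. Against Ctrl, limma called lower 9 of 10 endothelial, 5 of 5 erythroid, 4 of 4 B and plasma cell and 3 of 3 T and NK cell markers tested in Alc. In Alc UA it called lower 10, 5, 4 and 2 of them, beside 22.8% of all tested genes in Alc and 32.1% in Alc UA. Only 5 of 6 erythroid, 4 of 6 B and plasma cell and 3 of 7 T and NK cell markers found were tested. The 5 controls alone could carry a marker past the filter, so markers high in Ctrl were likelier to be tested. Other marker lists differed less. In Alc, limma called 0 of 10 Kupffer cell and macrophage and 0 of 8 stellate cell markers. It called 1 of 5 neutrophil and monocyte and 1 of 4 cholangiocyte markers, each lower. In Alc UA, 1 Kupffer cell and macrophage marker was higher, and 1 stellate cell and 1 cholangiocyte marker were lower. The part of these cell types in the results below was not tested. In bulk tissue, fewer cells of a type and less RNA per cell cannot be told apart.

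The first comparison asks how these genes differ in the liver between the alcohol diet and the control diet. Maff was the 1 member called. Its mean was 1.45 ± 0.328 FPKM in Ctrl and 6.40 ± 2.57 in Alc (SD, n = 5 each), 4.43-fold higher. The other 9 members, among them Fos, Jun, Junb and Egr1, did not pass the test, and their groups overlapped. Thus 1 of 10 members was called higher and 0 lower, beside 33.3% of all tested genes called, 10.6% higher and 22.8% lower (limma on log2(FPKM + 1), Benjamini-Hochberg adjusted p under 0.05). A count of 1 in 10 is close to the share of all genes called higher, so it does not set the members apart. The median log2 difference of the members was -0.07, close to the median of all tested genes.

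Maff had 1.5, 1.62, 1.74, 1.48 and 0.89 FPKM in Ctrl 1 to 5. In Alc 1 to 5 it had 7.34, 4.92, 3.30, 10.1 and 6.36 FPKM, and in Alc UA 1 to 5 it had 12.06, 34.56, 3.48, 24.7 and 7.44 FPKM. Every alcohol-fed mouse, with or without UA, lay above every control, and the 2 alcohol-fed groups overlapped. How many of all tested genes separate alcohol-fed mice from controls in this way, above or below, was not counted. The separation therefore does not set Maff apart from other genes. By limma p, Maff ranked 1998th of the 10959 tested genes in Alc minus Ctrl and 569th in Alc UA minus Ctrl. On the log2(FPKM + 1) scale, which understates changes of low genes, Alc exceeded Ctrl by 1.54 ± 0.43 (SE; 95% interval 0.63 to 2.44; limma adjusted p = 0.013). Alc UA exceeded Ctrl by 2.48 ± 0.43 (1.57 to 3.38; limma adjusted p = 0.00055). An exact two-sided permutation test gave p = 0.0079 for each, the smallest that 5 against 5 allows, and 0.12 after Benjamini-Hochberg adjustment over the 30 member tests. The call held without any 1 library, with log2 differences of 1.37 to 1.72 for Alc and 2.13 to 2.88 for Alc UA.

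**Figure D2:**
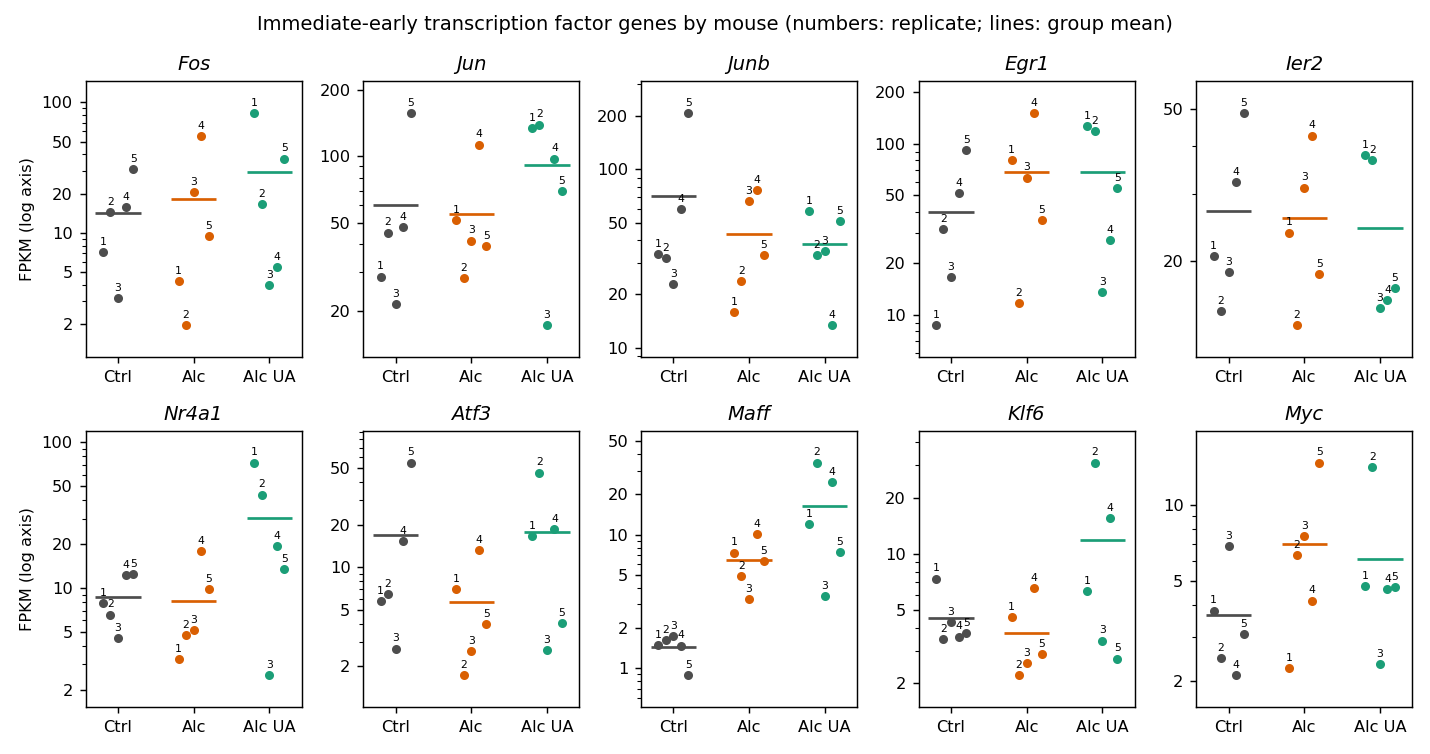
FPKM of each member (logarithmic axis) in every mouse, grouped by diet, with points numbered by replicate and lines at the group means. Maff is the member in which all 10 alcohol-fed mice lie above all 5 controls; in the other 9 genes the groups overlap.

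The AP-1 genes proper differed more between mice of a group than between groups. Fos, which encodes the partner that JUN proteins need for strong AP-1 binding, had 7.16, 14.47, 3.16, 15.82 and 30.79 FPKM in Ctrl 1 to 5. It had 4.29, 1.96, 20.67, 55.22 and 9.46 FPKM in Alc 1 to 5, and 83.0, 16.7, 3.98, 5.45 and 37.02 FPKM in Alc UA 1 to 5. The highest mouse exceeded the lowest 9.74-fold in Ctrl, 28.2-fold in Alc and 20.9-fold in Alc UA. Alc minus Ctrl was -0.10 ± 0.84 on the log2 scale, with a 95% interval of -1.89 to 1.69 (limma adjusted p = 0.94), so that a change of Fos several-fold in either direction lies within the interval. With library quality weights it was -0.93 (limma adjusted p = 0.28).

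Jun, the main partner of FOS, had 28.5, 45.06, 21.33, 47.85 and 157.34 FPKM in Ctrl 1 to 5. It had 51.41, 28.03, 41.48, 113.01 and 39.16 in Alc 1 to 5 and 134.13, 139.24, 17.14, 97.63 and 69.61 in Alc UA 1 to 5. One mouse of Ctrl and 1 of Alc stood well above the rest of their groups, while in Alc UA only mouse 3 was low. Alc minus Ctrl was 0.07 ± 0.57 (limma adjusted p = 0.94) and Alc UA minus Ctrl 0.67 ± 0.57 (limma adjusted p = 0.36). Junb, which encodes a JUN relative with weaker activity on many AP-1 targets, had 33.5, 31.81, 22.73, 59.81 and 207.48 FPKM in Ctrl 1 to 5. Its values were 15.76, 23.62, 66.34, 76.82 and 33.09 in Alc and 58.04, 33.12, 34.81, 13.33 and 51.32 in Alc UA. For Junb, Ctrl 5 was far above every other mouse. Alc minus Ctrl was -0.44 ± 0.56 (limma adjusted p = 0.57), and 0.07 without Ctrl 5.

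Atf3, a stress-induced bZIP factor that often represses its targets, had 5.79, 6.44, 2.67, 15.38 and 54.83 FPKM in Ctrl 1 to 5. It had 7.06, 1.74, 2.57, 13.16 and 3.98 in Alc 1 to 5 and 16.58, 46.63, 2.61, 18.71 and 4.03 in Alc UA 1 to 5. The highest control and the highest Alc UA mouse were of like level, and the groups overlapped. Alc minus Ctrl was -0.99 ± 0.75 (95% interval -2.58 to 0.61; limma adjusted p = 0.32) and shrank to -0.40 without Ctrl 5.

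Among the zinc finger and other factors, Egr1, which binds GC-rich EGR elements, had 8.67, 31.63, 16.58, 51.39 and 91.85 FPKM in Ctrl 1 to 5. Its values were 80.68, 11.69, 63.49, 151.59 and 35.64 in Alc and 126.45, 118.0, 13.61, 27.3 and 54.99 in Alc UA. The 3 groups overlapped, with the highest mouse in Alc. Alc minus Ctrl was 0.76 ± 0.73 (limma adjusted p = 0.44), 0.34 without Ctrl 1 and 1.27 without Alc 2. Ier2, a nuclear immediate-early protein, ranged from 14.84 to 48.81 FPKM in Ctrl, 13.62 to 42.6 in Alc and 15.11 to 37.82 in Alc UA. It was the steadiest member of the set after its group means were removed, and Alc minus Ctrl was -0.04 ± 0.36 (limma adjusted p = 0.95). Myc, a growth-promoting factor that binds E-boxes with MAX, ranged from 2.12 to 6.85 FPKM in Ctrl, 2.26 to 14.65 in Alc and 2.34 to 14.09 in Alc UA. Alc minus Ctrl was 0.66 ± 0.41 (limma adjusted p = 0.22), and with limma's library quality weights it was 1.06 and passed (adjusted p = 0.02).

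These spreads were large for this liver table. The SD of the log2 values around the group means was 1.52 for Fos, 1.36 for Atf3, 1.33 for Egr1, 1.14 for Nr4a1, 1.03 for Jun and 1.01 for Junb. It was 0.84 for Klf6, 0.77 for Maff, 0.73 for Myc and 0.64 for Ier2, against a median of 0.199 for all tested genes. Fos ranked 7th from the top among the 10959 genes and Ier2, the lowest of the members, 283rd. No level or length was matched in this ranking.

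The second comparison asks what UA added to the alcohol diet. No member was called in Alc UA minus Alc by limma, beside 0.00912% of all tested genes, that is 1 gene called higher and 0 lower. At an unadjusted limma p under 0.05, 3 of 10 members were higher and 0 lower, beside 6.06% of all genes in either direction. The share of all genes higher was not counted at this threshold. The exact permutation test called 0 members. The members' median log2 difference was 0.62, against -0.05 over all genes.

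Nr4a1, Maff and Klf6 were those 3 genes. Nr4a1, an orphan nuclear receptor linked in liver to cyclic AMP and glucose production, had 3.27, 4.74, 5.15, 17.94 and 9.85 FPKM in Alc 1 to 5. In Alc UA 1 to 5 it had 72.58, 43.81, 2.53, 19.46 and 13.44 FPKM, and in Ctrl 1 to 5 it had 7.84, 6.58, 4.56, 12.27 and 12.4. In Nr4a1, 3 Alc UA mice were above every Alc mouse, and Alc UA 3 was the lowest of all 15. The means were 8.19 ± 5.98 in Alc and 30.4 ± 28.0 in Alc UA (SD, n = 5 each), with a log2 difference of 1.36 ± 0.63 (95% interval 0.02 to 2.69; limma p = 0.047, adjusted p = 0.82; exact permutation p = 0.16).

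Klf6, a zinc finger factor first known from stellate cell activation and also made in hepatocytes, had 4.56, 2.22, 2.58, 6.52 and 2.88 FPKM in Alc 1 to 5. In Alc UA 1 to 5 it had 6.3, 30.95, 3.4, 15.52 and 2.72, and in Ctrl 1 to 5 it had 7.35, 3.47, 4.3, 3.58 and 3.73. Alc UA 2 and Alc UA 4 were the highest of all 15 mice, and the remaining Alc UA mice lay within the range of Alc. The log2 difference was 1.02 ± 0.47 (limma p = 0.046, adjusted p = 0.82; exact permutation p = 0.16), and 0.56 without Alc UA 2. For Maff, Alc UA 2, Alc UA 4 and Alc UA 1 were above every Alc mouse, and the difference was 0.94 ± 0.43 (95% interval 0.03 to 1.85; limma p = 0.043, adjusted p = 0.82; exact permutation p = 0.15).

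For Maff the difference was 0.59 without Alc UA 2, and for Nr4a1 it was 0.89 without Alc UA 1 and 1.99 without Alc UA 3. Summed hepatocyte markers in Alc UA 1 to 5 were 41520, 29630, 49040, 37730 and 45660 FPKM, so the order of the 5 mice was the reverse of that for Maff. In Alc 1 to 5 these sums were 59930, 54210, 50680, 43700 and 53860 FPKM. In Ctrl 1 to 5 they were 33940, 56270, 52550, 54790 and 55590 FPKM. In neither Alc nor Ctrl was the order the reverse of that for Maff. The 6 markers did not move together. In Alc UA minus Alc, Alb and Ttr had log2 differences of -0.57 and -0.54. Those of Apoa1, Serpina1c, Hnf4a and Cps1 were 0.12, 0.26, 0.07 and 0.23, and limma called 0 of the 6. A sum of FPKM is weighted towards the most abundant messages, so it does not give the share of hepatocytes. Whether hepatocytes bear on the Maff values was not tested.

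Different Alc UA mice led in different members. Alc UA 1 was the highest of its group for Fos, Junb, Egr1, Ier2 and Nr4a1, and Alc UA 2 for Jun, Atf3, Maff, Klf6 and Myc. Alc UA 3 was the lowest of its group for 8 of 10 members, and it also had the highest summed Kupffer cell and macrophage markers, 597.2 FPKM against 174.7 to 213.6 in the other Alc UA mice. In Alc these markers were highest in Alc 4 at 252.9 and next in Alc 2, the mice that were highest for 9 and lowest for 6 members, and in Ctrl they were lowest in Ctrl 5 at 53.78. Whether these cells bear on the members' values was not tested. Without Alc UA 3, Nr4a1 passed in Alc UA minus Ctrl at 1.77 (limma adjusted p = 0.0091), no member was called by limma in Alc UA minus Alc, and the exact permutation test put 3 members, Jun, Nr4a1 and Maff, below an unadjusted 0.05 in Alc UA minus Alc.

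The third comparison sets alcohol with UA against the control diet, and it shares its libraries with both comparisons above. Maff was again the 1 member called, 11.4-fold higher by group means, beside 42.6% of all tested genes called, 10.5% higher and 32.1% lower. Nr4a1 differed by 1.14 ± 0.63 (limma adjusted p = 0.15), and by 1.42 with library quality weights, where it passed (adjusted p = 0.043). Klf6 differed by 0.78 ± 0.47 (limma adjusted p = 0.19), Egr1 by 0.74 ± 0.73 (0.43) and Fos by 0.54 ± 0.84 (0.63). Atf3 differed by 0.16 ± 0.75 (0.88), Junb by -0.53 ± 0.56 (0.47), Myc by 0.50 ± 0.41 (0.34) and Ier2 by -0.13 ± 0.36 (0.79), each with its limma adjusted p in brackets. The members' median was 0.60. Leaving out 1 library moved several of these values: Junb to -0.02 without Ctrl 5, Myc to 0.18 without Alc UA 2, Klf6 to 0.32 without Alc UA 2, Egr1 to 0.32 without Ctrl 1, and Jun, at 0.67 with all mice, to 0.40 without Ctrl 3 and 1.18 without Alc UA 3.

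**Figure D3:**
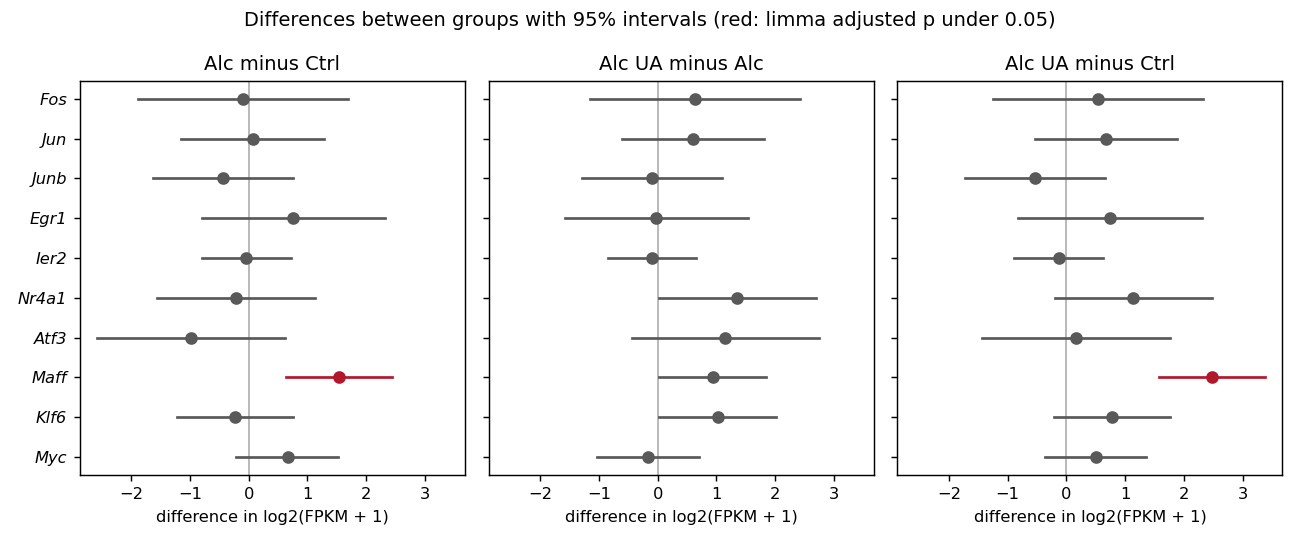
Log2 differences of the 10 members in the 3 comparisons, with points at the limma estimates on the log2(FPKM + 1) scale and bars for limma's moderated 95% intervals; red marks an adjusted p under 0.05. Maff is red in both comparisons with Ctrl (1.54 and 2.48), the lower ends for Nr4a1, Maff and Klf6 lie just above 0 in Alc UA minus Alc, and the other intervals span 0.

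By mean level, Junb, Jun and Egr1 led in Ctrl at 71.1, 60.0 and 40.0 FPKM. Egr1, Jun and Junb led in Alc at 68.6, 54.6 and 43.1, and Jun, Egr1 and Junb in Alc UA at 91.6, 68.1 and 38.1. The SD of each of these means was between 17.5 and 77.5 FPKM, so the order within the leading 3 lay within the spread between mice. Maff was the lowest of the 10 in Ctrl at 1.45 FPKM and the eighth in both other groups, at 6.40 and 16.4.

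Several members varied together between mice of the same diet. Within-group deviations, the log2 values minus their group mean, were compared over the 15 mice, and p-values came from 100000 permutations of mice within groups. Fos deviations correlated with those of Egr1 (Pearson r = 0.808, permutation p = 0.0014, 0.0064 adjusted over 9 relations; Spearman rho = 0.846, permutation p = 0.00074). They also correlated with Junb (r = 0.789, permutation p = 0.00042, adjusted 0.0038; rho = 0.782, permutation p = 0.0014), Ier2 (r = 0.737, permutation p = 0.0058, adjusted 0.013; rho = 0.729, permutation p = 0.0065), Jun (r = 0.715, permutation p = 0.0034, adjusted 0.01; rho = 0.689, permutation p = 0.0086) and Nr4a1 (r = 0.707, permutation p = 0.0094, adjusted 0.017; rho = 0.668, permutation p = 0.018). Without Alc 4 and Alc UA 1, the 2 mice farthest from the median of Fos, these 5 values of r were 0.747, 0.766, 0.614, 0.632 and 0.525. Fos and Atf3 gave r = 0.487 (permutation p = 0.083, adjusted 0.12), and Fos with Maff, Klf6 and Myc gave 0.07, -0.02 and -0.01.

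The libraries at the ends were shared. Ctrl 5 was the highest control for 7 members and the lowest for Maff, and Alc 4 was the highest Alc mouse for 9, all but Myc. At the low end, Ctrl 3 was lowest for 5 members and Alc 2 for 6. The 12 heat shock genes summed to 1697 FPKM in Ctrl 5, the lowest control, to 1548 in Alc 4, second to Alc 1 at 1589, and to 1379 in Alc UA 3, the lowest of its group. Hspa1a, an inducible HSP70 gene, had 41.45, 17.35, 16.82, 119.87 and 12.16 FPKM in Ctrl 1 to 5. It was lower in every alcohol-fed mouse than in every control, at 1.15 to 11.01 FPKM in Alc and 0.57 to 3.1 in Alc UA (limma log2 difference Alc minus Ctrl -3.11 ± 0.56, adjusted p = 0.0011). Hspa1b, its neighbour and near-identical copy, with which it could share reads, had 24.73 to 179.68 FPKM in Ctrl, 5.7 to 22.9 in Alc and 2.3 to 16.71 in Alc UA.

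**Figure D4:**
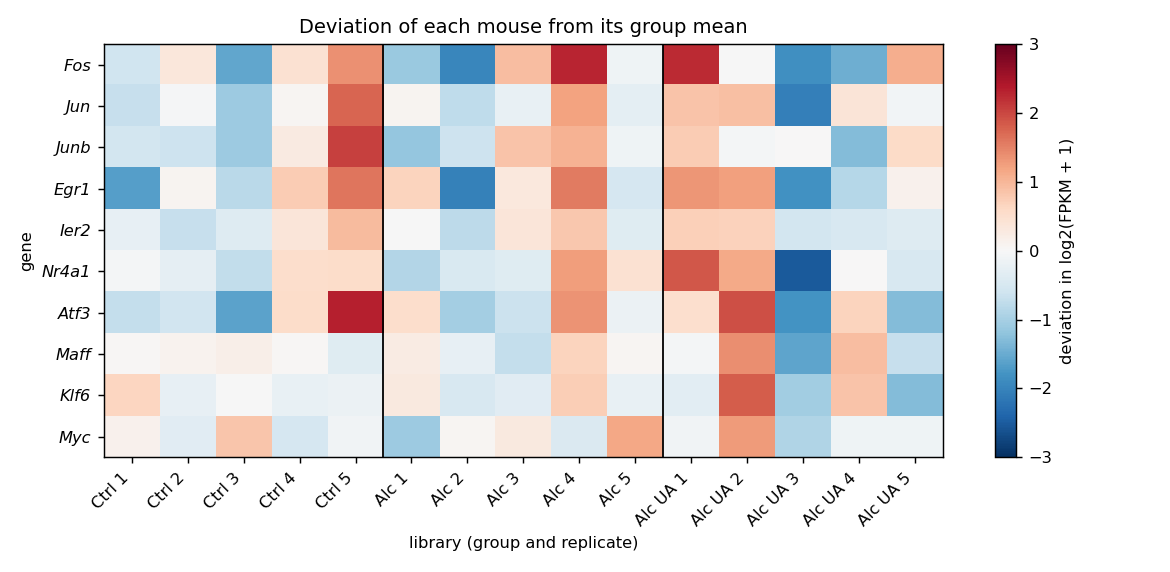
Deviation of each member from its group mean, in log2(FPKM + 1) units, for each of the 15 mice. Ctrl 5 and Alc 4 are above their group means in most members and Alc UA 3 is below in most, while Maff and Klf6 are highest in Alc UA 2 and Alc UA 4.

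All 45 pairs of members were then compared in the same way, a comparison added after the values were seen. Of these, 39 had a positive r and 17 passed at 0.05 after adjustment over the 45. The strongest was Jun with Atf3 (r = 0.904, permutation p = 1e-05, the smallest that the permutations can give, adjusted 0.00045; rho = 0.921, permutation p = 1e-05; r = 0.868 without 2 mice). Maff with Klf6 gave r = 0.885 (permutation p = 0.0034, adjusted 0.014; rho = 0.861, permutation p = 0.0025) and 0.825 without Alc UA 2 and Alc UA 3. This was the 1 passing pair that held Maff, Klf6 or Myc, and Myc passed with no other member. The differences between these correlations were not tested. How often pairs of other tested genes vary together in this way was not counted, here or for Fos. The counts of pairs therefore do not set the members apart.

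**Figure D5:**
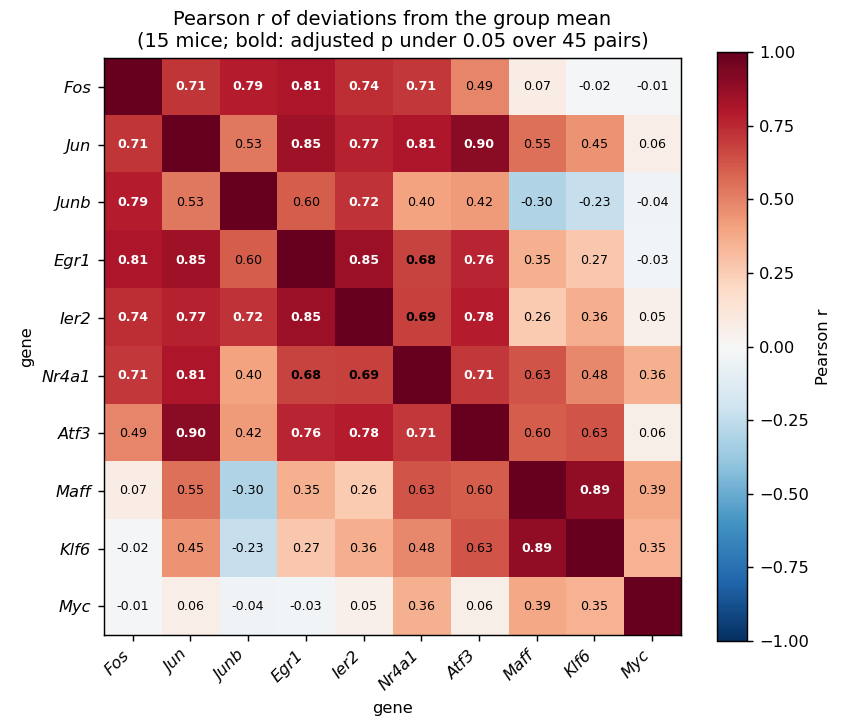
Pearson r of within-group deviations for each of the 45 pairs of members over 15 mice, with the colour scale and the printed values giving r and bold marking an adjusted p under 0.05. Jun with Atf3 (0.904) and Maff with Klf6 (0.885) are the strongest, and 17 pairs are bold.

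The genes outside the set whose deviations were most like the mean of the members' standardised deviations over the 15 mice were Btg2, Fosb, Jund, Ccn1 and Ppp1cb, with Pearson r of 0.945, 0.937, 0.885, 0.837 and 0.82. Btg2 is an antiproliferative immediate-early gene, Fosb and Jund are AP-1 genes, Ccn1 encodes a matricellular protein, and Ppp1cb a catalytic subunit of protein phosphatase 1. Btg2 had 9.02, 7.96, 10.02, 22.65 and 48.2 FPKM in Ctrl 1 to 5, 25.66, 12.79, 19.5, 43.96 and 22.99 in Alc, and 79.31, 116.24, 9.95, 24.48 and 19.42 in Alc UA. Its highest control was Ctrl 5 and its highest Alc mouse Alc 4, as for most members. Fosb ranged from 0.77 to 7.78 FPKM in Ctrl, 0.12 to 4.83 in Alc and 0.56 to 11.34 in Alc UA. Ppp1cb was much steadier, between 23.46 and 32.08 FPKM over all 15 mice.

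Of 31 further immediate-early genes tested, 3 were higher and 13 lower in Alc than in Ctrl, 51.6% called beside 33.3% of all genes, with a median log2 difference of -0.54 against -0.12 over all genes. In Alc UA against Ctrl 5 were higher and 10 lower, 48.4% called beside 42.6%, with a median of -0.25 against -0.16. Those with the smallest p in Alc minus Ctrl were Nfil3, a bZIP repressor of the clock output, at -1.46 ± 0.16 (limma adjusted p = 3.3e-05), and Id2 and Id3, inhibitors of basic helix-loop-helix factors, at -1.44 ± 0.17 (5.1e-05) and -2.12 ± 0.27 (0.00012). Nfil3, Id2 and Id3 were also lower in Alc UA, by -0.97, -1.15 and -1.98. Bhlhe40, a helix-loop-helix repressor that clock factors drive, was higher in Alc UA at 1.14 ± 0.18 (limma adjusted p = 0.00026) and in Alc at 1.05 ± 0.18 (0.00069). The split of this list in Alc minus Ctrl was 5 higher and 6 lower with each library scaled to the same FPKM sum, 4 and 8 with median-of-ratios factors, 2 and 8 without Ctrl 4, 3 and 8 without Alc 2, and 3 and 9 without Ctrl 1 and Ctrl 5. Over all genes the split of 1157 higher and 2497 lower became 2049 and 2024 with quantile normalisation, 2206 and 1672 with median-of-ratios factors and 1602 and 1294 with equal sums. For Alc UA minus Ctrl the split of 1152 and 3521 became 2420 and 2430, 2738 and 2022, and 1310 and 2540.

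Several genes of that list are also clock genes, and the clock differed between the diets. Dbp, a clock output factor, had 3.09 to 6.65 FPKM in Ctrl, 62.93 to 125.86 in Alc and 57.88 to 94.0 in Alc UA. Arntl, the BMAL1 gene, had 8.07 to 12.25 FPKM in Ctrl, 1.07 to 1.55 in Alc and 0.63 to 1.24 in Alc UA. Of 17 tested clock genes, 12 were higher and 4 lower in each comparison with Ctrl. A difference in the hour of collection or in the phase of the clock and an effect of the diet cannot be told apart here, for Maff as for the other genes.

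Upstream of the members, 30 kinases and factors that relay signals to immediate-early promoters were tested, of which 4 were higher and 6 lower in Alc than in Ctrl and 4 and 7 in Alc UA. These are 33.3% and 36.7% of the list, beside 33.3% and 42.6% of all genes, so the list does not stand out from the background. Map2k6, a p38 kinase activator, was higher by 1.60 ± 0.18 (limma adjusted p = 3.3e-05) in Alc and by 1.03 ± 0.18 (0.00056) in Alc UA. Crem, whose ICER products repress cAMP response elements, was lower in Alc at -0.92 ± 0.15 (0.00051) and in Alc UA at -0.58 ± 0.15 (0.0058). Elk3, an SRF partner, was lower in Alc UA at -1.41 ± 0.22 (0.00026) and in Alc at -1.09 ± 0.22 (0.0022). With median-of-ratios factors the splits turned to 8 higher and 4 lower in Alc and 12 and 4 in Alc UA, with quantile normalisation to 6 and 5 and 9 and 5, and with equal sums to 5 and 3 and 4 and 4.

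Of 11 tested feedback inhibitors, which end the signal, 2 were higher and 0 lower in Alc, Dusp16 at 0.53 ± 0.19 (limma adjusted p = 0.047) and Spry4 at 0.62 ± 0.23 (0.048). This is 18.2% called, beside 33.3% of all genes and 10.6% higher. The count rested on p-values close to the threshold: 0 were higher with no filter, and 0 when Alc UA 1, Ctrl 1, Ctrl 2 or Ctrl 4 was left out, or any Alc mouse other than Alc 4. Without Ctrl 5 it was 1 higher and 3 lower, without Ctrl 1 and Ctrl 5 0 and 1, and with median-of-ratios factors 6 and 0. In Alc UA against Ctrl 2 were higher and 1 lower, 27.3% beside 42.6%, and with quantile normalisation or median-of-ratios factors 6 and 1. Dusp6, a phosphatase of ERK that ERK signalling itself induces, was higher by 1.52 ± 0.39 (limma adjusted p = 0.0064). Dusp16 was also higher there, by 0.68 ± 0.19 (0.012). In Alc minus Ctrl, Dusp6 stood at 0.94 ± 0.39 (0.075) and did not pass.

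Among 12 tested bZIP partners, 2 were higher and 3 lower in Alc, and 2 and 2 in Alc UA, 41.7% and 33.3% called beside 33.3% and 42.6% of all genes. The Alc UA split was 4 and 2 with quantile normalisation and 5 and 2 with median-of-ratios factors. Bach1, a heme-sensitive repressor that pairs with small MAF proteins such as MAFF, was higher by 0.61 ± 0.13 (limma adjusted p = 0.0031) in Alc and by 0.99 ± 0.13 (8.4e-05) in Alc UA. Maf, a large MAF factor, was lower at -0.88 ± 0.19 (0.0032) and -0.91 ± 0.19 (0.0019), and Atf4, a factor of the integrated stress response, at -0.79 ± 0.19 (0.0055) and -0.65 ± 0.19 (0.011). Of 10 tested MYC partners, 0 were higher and 3 lower in each comparison with Ctrl, 30% called. Among them was Mlxip, at -0.54 ± 0.14 in Alc (limma adjusted p = 0.0099) and -0.72 ± 0.14 in Alc UA (0.0012). The split was 1 and 1 in Alc and 2 and 3 in Alc UA with median-of-ratios factors, 0 and 1 and 2 and 3 with quantile normalisation, and 0 and 1 and 0 and 3 with equal sums. Of 15 tested MYC targets, 1 was higher and 5 lower in each, 40% called, which is near the share of all genes. They included Srm, a spermidine synthase, higher by 0.41 ± 0.10 in Alc (limma adjusted p = 0.0058) and Nop56, a nucleolar protein, lower at -0.82 ± 0.20 (0.0067). In Alc UA, Srm and Nop56 differed from Ctrl by 0.42 ± 0.10 (0.0033) and -0.89 ± 0.20 (0.0029). In Alc UA minus Alc limma called 0 genes of each of these lists, and at an unadjusted p under 0.05 there were 3 of 31 immediate-early genes, 4 of 30 kinases and factors, 0 of 11 inhibitors, 1 of 12 bZIP partners, 1 of 10 MYC partners and 0 of 15 MYC targets, beside 6.06% of all genes.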

How the data were processed

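Liver total RNA of 15 mice was measured by RNA sequencing, per the labels. The authors deposited 1 table of FPKM values, given to 2 decimals, so reads per library are unknown. Per the submitters' processing notes, which give no roles, the tools were RSEM 1.2.8, StringTie, DESeq, Bowtie2 2.2.5 and HISAT2 2.1.0. The sources used here do not give genome build, annotation or strand use, so reads of overlapping, antisense or near-identical genes may be split in unknown ways. Columns were matched to mice by letter and number against the sample titles, and 0 columns stayed unmapped. In 25 rows the symbol had become a date, and 4 rows share a symbol with another row.

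Values were analysed as log2(FPKM + 1), for genes reaching 1 FPKM in 5 or more of the 15 libraries, with limma 3.58.1 in R 4.3.3 (trended prior, 12 residual degrees of freedom, no block, Benjamini-Hochberg at 0.05). SEs and 95% intervals are limma's moderated ones (15.8 degrees of freedom for the members). The fit was tested on simulated data. Its p-values set differences against the spread between these mice, and no label says more on how replicates were taken. Exact permutation tests over 252 assignments and correlations used Python 3.11.15 and scipy 1.17.1, and figures matplotlib 3.10.9. Promoters came from RefSeq (GRCm38.p6) by symbol, and 7 of 10 members matched. Egr1, Ier2 and Myc did not.

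The members and gene lists were chosen with earlier results of these data known. All members were named, and from each other list up to 3 genes with the smallest p among those called, together with Dbp, Arntl, Hspa1a, Hspa1b and the 5 genes most like the members, of which a part is printed, and 1 gene is not reported here. Alternatives were another pseudocount, no filter, 3 other scalings, no trend, 2 groups only, library quality weights, a replicate block, each library left out, and Ctrl 1 with Ctrl 5 left out. The exact tests without single libraries, without Ctrl 1 and Ctrl 5 or under equal sums, the correlations under equal sums and the 45 pair correlations were added after seeing the data.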

Additional observations from a re-analysis of the deposited data

Results flagged for a closer look

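In 6 of 30 sets of 5 values (10 members in 3 groups), 1 mouse lay far from the rest. Its gap to the nearest mouse exceeded 0.71 of the whole range. Sets of 5 normally distributed values pass this limit in about 1 in 20 cases. The limit was applied to FPKM and not to log2 values, so that rate need not hold here. Ctrl 5 held 3 of them: Jun at 157.34 FPKM (the next control at 47.85), Junb at 207.48 (59.81) and Atf3 at 54.83 (15.38). Jun in Alc 4 had 113.01 FPKM (51.41 in the next Alc mouse). Klf6 in Ctrl 1 had 7.35 FPKM (4.3). Myc in Alc UA 2 had 14.09 FPKM (4.77).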

How the results depend on the processing

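The call of Maff held in both comparisons with Ctrl under every alternative run, from 1.40 to 2.01 for Alc and from 2.37 to 3.02 for Alc UA. With library quality weights 2 members were called in each of these comparisons, and 5870 genes in Alc minus Ctrl. For Alc UA minus Alc, genes called were 2 at equal sums, 3 with weights, 0 in a fit of 2 groups only and 2 without Ctrl 1 and Ctrl 5. With single libraries left out, members called were 1 to 1 in Alc minus Ctrl, 0 to 0 in Alc UA minus Alc and 1 to 2 in Alc UA minus Ctrl; genes called were 1 to 5 in Alc UA minus Alc; members under 0.05 by the exact test were 1 to 2, 0 to 3 and 1 to 2 in the same order; and members correlated with Fos were 4 to 5. No label says what the replicate numbers mark. Over genes, 5 of 15 same-numbered pairs of mice correlated above 0.1 (-0.302 to 0.287), and differently numbered pairs ran from -0.345 to 0.339. These values cannot show whether the mice were paired. The replicate block gave 1, 0 and 1 members and 3554, 0 and 4534 genes. Signs turned only in differences that did not pass. In Alc minus Ctrl, Fos and Ier2 became 0.04 and 0.06 (quantile), 0.04 and 0.13 (median-of-ratios) and 0.03 and 0.10 (equal sums), Jun, Egr1 and Ier2 -0.18, -0.01 and 0.06 (weights), and Fos, Junb and Ier2 0.16, 0.05 and 0.20 (without Ctrl 1 and Ctrl 5). In Alc UA minus Alc, Egr1 became 0.02 (quantile) and 0.06 (median-of-ratios), and Junb, Egr1 and Ier2 0.12, 0.72 and 0.22 (weights). In Alc UA minus Ctrl, Ier2 became 0.01, 0.10, 0.28 and 0.11 (quantile, median-of-ratios, weights, without Ctrl 1 and Ctrl 5). Without single libraries, Alc minus Ctrl ran from -0.67 to 0.39 for Fos, -0.23 to 0.50 for Jun, -0.72 to 0.07 for Junb, -0.23 to 0.20 for Ier2 and -0.53 to 0.00 for Nr4a1. Alc UA minus Alc ran from -0.38 to 0.23 for Junb, -0.53 to 0.43 for Egr1, -0.29 to 0.11 for Ier2 and -0.48 to 0.13 for Myc, and Alc UA minus Ctrl from -0.02 to 1.0 for Fos, -0.31 to 0.11 for Ier2 and -0.32 to 0.75 for Atf3. The cause of these changes was not tested. Reads per library are unknown, so counting error could not be set beside the low levels of Maff in Ctrl.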
